A study of Mus musculus with 6 samples.

Results

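The nasal and the temporal conjunctival epithelium of the mouse embryo were compared with each other on 4 bead arrays, chosen by their titles from the 6 arrays of the series. The nasal arrays were 1 labelled Sox9 knockout and 1 wild type, and the temporal arrays were likewise 1 of each. The remaining 2 arrays, knockout and wild-type dorsal epithelium, entered the normalization, the detection filter, the choice of probe and the estimate of the spread, and their levels are given beside some genes. All embryos were of a mixed FVB and 129 background and were taken at stage E14.5. Knockout embryos carried Sox9 fx/fx and Le-Cre, a transgene expressed in ectoderm of the eye surface and not in mesenchyme, and the labels call the other embryos wild type. Epithelium was cut from 10 micrometre frozen sections by laser, and 15 ng of total RNA was amplified. According to the design text, 3 embryos of each genotype were used and the cDNA of a region was pooled, whereas the protocol for extraction mentions lens tissue of one embryo. By the design text the nasal and temporal arrays of a genotype came from the same embryos, and the only repeat of the comparison was the other genotype. The p-values therefore measure the spread between these arrays and not between embryos.

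The conjunctiva lines the eyelids and the white of the eye. Its temporal fornix sends out the epithelial buds of the lacrimal gland, which secretes tears, and its nasal side gives rise to the Harderian gland, which secretes lipid behind the eye. Lacrimal buds grow under FGF10 from the surrounding mesenchyme, with SOX9 and then SOX10 in the bud epithelium and with heparan sulfate as a cofactor of FGF at the cell surface. Wnt signals passing through beta-catenin switch on their own feedback inhibitors, among them Axin2, Nkd1, Znrf3 and Rnf43, and hold back gland budding in the eye surface.

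Levels are given as log2 of the background-corrected, quantile-normalized signal plus an offset of 16, on which a probe without signal reads slightly over 4, and differences are nasal minus temporal on that scale. Fold changes of dim genes are understated by the offset. A probe counted as detected on an array at a detection p-value under 0.05, and 11147 genes had a probe detected on at least 2 of the 6 arrays. Nasal arrays detected 18040 (knockout) and 19654 (wild type) probes and temporal arrays 18877 and 19969, at a median of 43 beads per probe. The knockout nasal array had the fewest detected probes, and its levels correlated with those of the knockout temporal array at 0.859 over genes, against 0.930 between the wild-type nasal and temporal arrays. Levels or differences are therefore given for the 2 genotypes side by side, and a wild-type difference does not include the level on that array. The normalization, detection filter and choice of probe still used that array, and the fit pooled both genotypes. All 17 tested markers of surface epithelium, such as Krt5, Cdh1 and Epcam, were detected on each of the 4 arrays. The Y-linked gene Eif2s3y read 7.60 (knockout) and 6.65 (wild type) on the nasal arrays, against 6.75 and 4.90 on the temporal arrays, and the share of male tissue in each pool is not given in the labels. Fewer cells of a type and less RNA per cell cannot be told apart in such bulk samples.

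In both genotypes the nasal epithelium had higher levels of the Wnt receptor Fzd10 and of the Wnt pathway genes Axin2, Nkd1, Wif1 and Znrf3, of the growth factor Tgfb2 and of the matrix proteoglycan Dcn. The temporal epithelium had higher levels of the Wnt antagonist Sfrp1 and of Aldh1a3, an enzyme that makes retinoic acid. Sox10, Mia, Col2a1 and Col9a1, from the lists of gland bud and cartilage matrix genes, were high on the wild-type temporal array and not on the knockout temporal array. No gene passed an adjusted p of 0.05 (limma, Benjamini-Hochberg, 0 of 11147, 0% called), and the smallest adjusted p was 0.690. At an unadjusted p under 0.05 there were 789 genes (7.08%), of which 374 were higher (3.36%) and 415 lower (3.72%) in nasal. The words higher and lower below therefore describe values, none of which passed the test across all genes.

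Differences of at least 2-fold were counted within each genotype, where there was 1 array per region and no test. Between the knockout arrays 2452 genes passed it (22%), 1203 higher in nasal (10.8%) and 1249 lower (11.2%). Between the wild-type arrays 1145 passed it (10.3%), 571 higher (5.12%) and 574 lower (5.15%). In both genotypes at once 105 genes were higher (0.942%) and 104 lower (0.933%), while 181 passed 2-fold in opposite directions (1.62%), 97 of them higher in knockout nasal (0.87%) and 84 lower (0.754%). The knockout and wild-type differences correlated at 0.043 across the 11147 genes, which are not independent replicates, and 51.4% of genes had the same sign in both. Differences of the 2 brightest probes of a gene correlated at 0.201 between the knockout arrays and 0.315 between the wild-type arrays over 4797 genes. A single-probe difference thus often depended on the probe, and the cause was not tested. The median 95% interval of a difference in the fit was ± 0.87 log2 units. Wild-type nasal differed from wild-type dorsal by 2-fold at 1085 genes (9.73%), and wild-type temporal from wild-type dorsal at 648 (5.81%). Among the wild-type arrays the nasal one was thus the farther from dorsal.

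The Wnt pathway list had 34 members tested of 43 on the array. Of these 15 were higher in nasal in both genotypes (44.1%, where 24.5% of all genes tested were) and 3 were lower in both (8.82%, against 26.9%). At an unadjusted p under 0.05 (limma) there were 8 higher and 1 lower of the 34, where 3.36% of all genes were higher and 3.72% lower. The median difference was 0.38 between the knockout arrays and 0.43 between the wild-type arrays, where the medians of all genes tested were -0.01 and -0.02. At least 2-fold higher in both genotypes were 5 members, Fzd10, Nkd1, Axin2, Wif1 and Znrf3, and no member was that much lower (0.942% and 0.933% of all genes). Other feedback inhibitors varied: Rnf43 differed by 0.40 between the knockout and 1.02 between the wild-type arrays, whereas Nkd2, a relative of Nkd1, had opposite signs, 2.36 and -1.23.

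The promoters of Axin2, Fzd10 and Tgfb2 are shown because each gene was at least 2-fold higher in nasal in both genotypes and Axin2 is a known direct target of Wnt signalling. The stretches are the 250 bases before the RefSeq transcription start on GRCm38.p6, 5′ to 3′ on the gene's own strand, and capitals mark any match to CTTTGA or CTTTGT, the core of the sequence that LEF1 and TCF factors bind. Axin2 lies at chr11:108920099-108920348 (plus strand), Fzd10 at chr5:128600856-128601105 (plus strand) and Tgfb2 at chr1:186705990-186706239 (minus strand).
Axin2: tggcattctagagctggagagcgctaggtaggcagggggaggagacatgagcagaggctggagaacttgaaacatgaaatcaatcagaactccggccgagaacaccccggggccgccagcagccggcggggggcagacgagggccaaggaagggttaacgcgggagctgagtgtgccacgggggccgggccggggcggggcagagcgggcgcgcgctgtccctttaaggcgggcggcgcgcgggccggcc
Fzd10: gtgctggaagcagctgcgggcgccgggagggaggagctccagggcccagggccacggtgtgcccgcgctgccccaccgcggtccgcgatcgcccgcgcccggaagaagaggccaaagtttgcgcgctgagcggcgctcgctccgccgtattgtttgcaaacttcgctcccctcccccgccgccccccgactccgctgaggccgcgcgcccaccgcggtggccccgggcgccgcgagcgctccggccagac
Tgfb2: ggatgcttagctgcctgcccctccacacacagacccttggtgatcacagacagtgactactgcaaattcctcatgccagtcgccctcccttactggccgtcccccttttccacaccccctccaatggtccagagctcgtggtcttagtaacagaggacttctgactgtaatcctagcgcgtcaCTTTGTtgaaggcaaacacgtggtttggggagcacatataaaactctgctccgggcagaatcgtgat
With both strands searched, the Tgfb2 window held 1 match, which starts 67 bases before the transcription start. The windows of Axin2, Fzd10, Nkd1 and Wif1 held 0, which says only that these letters are not in those 250 bases, and Znrf3 was not matched to the promoter table. A match to the motif was present in 27.6% of all 32851 promoter windows of this length.

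Fzd10 encodes a Frizzled receptor for Wnt ligands. Its level was 8.72 (knockout) and 9.05 (wild type) on the nasal arrays, against 6.50 and 4.83 on the temporal arrays. Both nasal arrays lay over both temporal arrays, as for 15.2% of all genes, and the dorsal arrays, at 6.91 and 6.42, lay between. The differences were 2.22 between the knockout and 4.22 between the wild-type arrays (bead SE 0.11 and 0.19), and the fit gave 3.22 (SE 0.51, limma adjusted p = 0.690). A second, dimmer probe of Fzd10 gave 0.20 and 1.20, the same sign at a smaller size. The related receptor genes Fzd1, Fzd2, Fzd6 and Fzd7 were higher in nasal between the knockout arrays but lower between the wild-type arrays. Fzd2, for example, differed by 1.78 and -0.62.

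Axin2, a scaffold of the complex that degrades beta-catenin and a widely used readout of Wnt signalling, read 5.84 (knockout) and 6.86 (wild type) on the nasal arrays, against 4.28 and 4.34 on the temporal arrays. The probe was not detected on either temporal array, and the mean difference amounts to at least 3.61-fold. The dorsal arrays were as high as the nasal ones, at 6.96 and 6.42, so that temporal was the low region. Nkd1, an inhibitor that acts on Dishevelled, read 7.40 (knockout) and 6.62 (wild type) on the nasal arrays, against 4.61 and 5.15 on the temporal arrays. Dorsal levels of Nkd1, 5.16 and 5.37, were near the temporal ones, and nasal was the high region. The fit gave a difference of 2.13 (SE 0.41) for Nkd1.

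Wif1 encodes a secreted protein that binds Wnt ligands, and it read 5.92 (knockout) and 6.12 (wild type) on the nasal arrays, against 4.71 and 4.87 on the temporal arrays. Znrf3, a membrane ubiquitin ligase that removes Frizzled receptors, read 7.60 (knockout) and 6.87 (wild type) on the nasal arrays, against 6.40 and 5.71 on the temporal arrays. Both genes had non-overlapping regions and nearly the same difference in the 2 genotypes, 1.20 and 1.25 for Wif1 and 1.19 and 1.17 for Znrf3 (knockout and wild type). Over all genes, 15.2% were higher and 17.1% lower in nasal with no overlap between the regions. Like Fzd10, Axin2 and Nkd1, both were named for a difference of at least 2-fold in both genotypes. Their shared direction follows from that choice, which also favours separate regions. Dorsal levels of Wif1, 4.23 and 4.57, were below the temporal ones, whereas those of Znrf3, 7.08 and 6.70, were near the nasal ones.

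Among Wnt ligands, Wnt4 read 6.28 (knockout) and 6.35 (wild type) on the nasal arrays, against 5.51 and 5.37 on the temporal arrays. Wnt10b read 6.08 (knockout) and 6.33 (wild type) on the nasal arrays, against 5.62 and an undetected 4.28 on the temporal arrays. Wnt7b, the brightest ligand, read 10.02 and 9.37 on the nasal arrays, against 9.99 and 8.25 on the temporal arrays, so that the knockout arrays hardly differed. By their brightest probes, Wnt3 (2.04 knockout, 0.06 wild type) and Wnt5b (0.44 and 0.20) were also higher in nasal in both genotypes. Wnt5a, Wnt6, Wnt9a, Wnt9b and Wnt10a had opposite signs in the 2 genotypes, Wnt10a with -1.38 for knockout and 0.56 for wild type. Lef1 and Sp5 encode a nuclear partner of beta-catenin and a zinc-finger factor induced by Wnt signals. Lef1 read 6.69 (knockout) and 7.86 (wild type) on the nasal arrays, against 6.99 and an undetected 4.31 on the temporal arrays, at least 10.5-fold higher in nasal between the wild-type arrays. Its brightest probe gave -0.31 between the knockout arrays, and 2 other probes gave 1.97 and 0.75 there. Sp5 read 6.71 (knockout) and 7.31 (wild type) on the nasal arrays, against 5.91 and an undetected 4.30 on the temporal arrays. Apcdd1, a membrane inhibitor of Wnt signalling that was not on the list, differed by 0.59 between the knockout and 2.98 between the wild-type arrays, and its second probe by 1.52 and 1.63.

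Sfrp1, a secreted antagonist that binds Wnt ligands, ran the other way. It read 7.48 (knockout) and 7.89 (wild type) on the nasal arrays, against 8.74 and 8.88 on the temporal arrays, and its second probe also gave lower values in nasal in both genotypes (-1.52 and -0.80). Dorsal levels of Sfrp1 were 8.59 and 8.61, and nasal was the low region. The co-receptor Lrp6 (-0.27 knockout, -0.42 wild type) and the repressor Tcf7l1 (-0.67 and -0.54) were the other members lower in both genotypes.

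**Figure D1:**
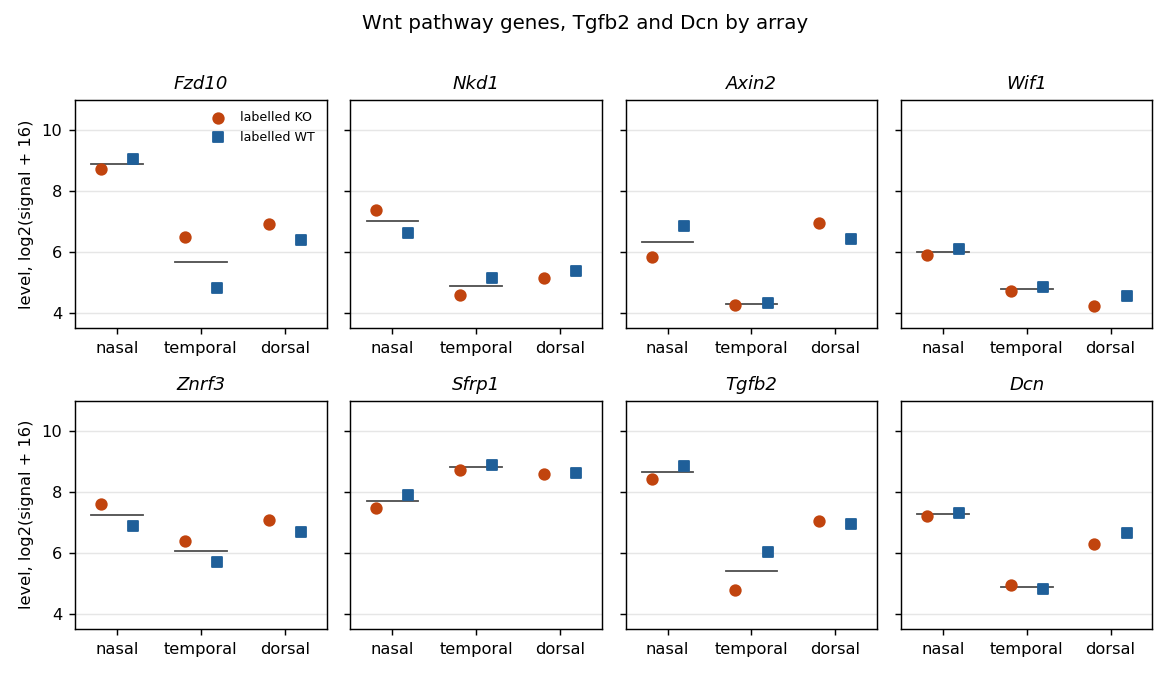
Level of 8 genes on each array, as log2(signal + 16), with the knockout arrays as circles and the wild-type arrays as squares, and a bar at the mean of the 2 arrays for nasal and for temporal. In Fzd10, Nkd1, Axin2, Wif1, Znrf3, Tgfb2 and Dcn both nasal arrays lie over both temporal arrays, Sfrp1 is reversed, and the dorsal arrays resemble nasal for Axin2 and Znrf3 but temporal for Nkd1 and Wif1.

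Tgfb2 showed the largest smaller-of-the-2 difference of any gene tested. It encodes a secreted growth factor of the TGF-beta family that acts on epithelium and mesenchyme of the eye. Its level was 8.44 (knockout) and 8.86 (wild type) on the nasal arrays, against 4.77 and 6.03 on the temporal arrays, a difference of 3.67 and 2.83. Dorsal arrays read 7.05 and 6.95, between the other regions. The fit gave 3.25 (SE 0.41), or 9.52-fold, and limma's adjusted p was again 0.690 in spite of an unadjusted p of 0.000279. Of the 24 tested members of the BMP and TGF-beta list, 8 were higher (33.3%, against 24.5% of all genes) and 3 lower (12.5%, against 26.9%) in nasal in both genotypes, and Tgfb2 alone passed 2-fold in both, as 0.942% of all genes did in that direction. Bmp4, a ligand that patterns eyelid and gland tissue, read 7.53 (knockout) and 7.02 (wild type) on the nasal arrays, against 7.32 and 4.59 on the temporal arrays. The knockout temporal array was thus at the nasal level for Bmp4, and the wild-type temporal array was not.

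Dcn, a small proteoglycan of connective tissue that binds collagen, read 7.22 (knockout) and 7.30 (wild type) on the nasal arrays, against 4.95 and 4.80 on the temporal arrays. A second Dcn probe gave nearly the same differences, 2.24 and 2.05, as the brightest one, 2.28 and 2.50. Dcn was on the list of periocular mesenchyme markers, of which 22 were tested and 8 were higher (36.4%, against 24.5% of all genes) and 6 lower (27.3%, against 26.9%) in nasal in both genotypes. The summed linear signal of those markers was 3447 (knockout) and 3005 (wild type) on the nasal arrays, against 3267 and 2076 on the temporal arrays. Other mesenchymal matrix genes did not follow Dcn on the knockout arrays: the fibrillar collagens Col1a2 and Col3a1 differed by -1.33 and -1.56 there, against 1.43 and 1.53 between the wild-type arrays. Whether captured mesenchyme had a part in the Dcn difference was not tested. Bgn, a relative of Dcn, differed by 0.52 between the knockout and 2.95 between the wild-type arrays.

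Other genes with a large difference of the same sign in both genotypes came from varied functions. Cdkn2b, an inhibitor of cyclin-dependent kinases, read 7.67 (knockout) and 7.05 (wild type) on the nasal arrays, against 5.46 and 4.53 on the temporal arrays. Runx1t1, a transcriptional corepressor, read 7.07 and 7.16 on the nasal arrays, against an undetected 4.40 and 5.28 on the temporal arrays. Keap1, the adaptor that marks the antioxidant factor NRF2 for degradation, read 9.19 and 8.82 on the nasal arrays, against 7.43 and 7.07 on the temporal arrays. All 3 were named for a large difference in both genotypes, so a difference of more than 2-fold in either genotype follows from that choice. In all 3 both nasal arrays lay over both temporal arrays, as they did for 15.2% of all genes. Ntn3, a netrin guidance cue, Sepsecs, an enzyme of selenocysteine synthesis, and Lypd2, Gatd3a, Rerg and Ccny completed the 12 highest. Col7a1, the collagen of the anchoring fibrils below epithelia, differed by 1.50 between the wild-type arrays. Between the knockout arrays, where temporal was undetected, it was at least 4.30-fold higher in nasal. A second Col7a1 probe gave 0.76 for knockout but -0.53 for wild type, so the wild-type direction depends on the probe. Cftr, the epithelial chloride channel, differed by 1.82 (knockout) and 1.24 (wild type).

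On the low side, Il6ra, the receptor chain for interleukin 6, read an undetected 4.26 (knockout) and 4.30 (wild type) on the nasal arrays. It read 6.31 and 7.25 on the temporal arrays, at least 4.75-fold lower in nasal by this probe. Another detected Il6ra probe differed by -0.873 between the knockout and 0.855 between the wild-type arrays, so the wild-type direction depends on the probe. Fxyd3, a regulator of the sodium pump in epithelia, read 5.95 and 7.38 on the nasal arrays, against 7.79 and 9.20 on the temporal arrays, with differences of -1.84 and -1.82. For Fxyd3 the wild-type nasal array was nearly as high as the knockout temporal array, and the separation was clear only within a genotype. Slc30a6, a zinc transporter, read 6.75 and 5.94 on the nasal arrays, against 8.64 and 8.12 on the temporal arrays. Tulp1, known from photoreceptors, was undetected on the knockout nasal array, at least 30.1-fold lower than on the knockout temporal array, and differed by -1.75 between the wild-type arrays. Upk1b, an uroplakin of surface epithelia, differed by -2.58 between the knockout arrays and was undetected on the wild-type nasal array, at least 2.82-fold lower. Bbc3 (PUMA), a cell death gene under p53, was undetected on the knockout nasal array, at least 3.52-fold lower, and differed by -1.80 between the wild-type arrays. Dbndd2, Mapk11, Mfsd11, Plac8, Ppp1r18, S100a13 and Utrn completed the 12 lowest. Of the 24 genes highest or lowest by this measure, 9 had another detected probe. Of those 12 other probes, 5 kept the direction of the brightest probe in both genotypes, and 1 was past 2-fold in both.

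Aldh1a3, which makes retinoic acid in the eye surface and optic cup, read 8.04 (knockout) and 7.74 (wild type) on the nasal arrays, against 9.03 and 8.69 on the temporal arrays. The differences were -0.98 and -0.95, and a second probe gave -1.69 and -0.95. Rdh10, which performs the step before it from retinol to retinal, was higher in nasal by 0.73 and 0.85, so the 2 enzymes lay on opposite sides. Of the 11 retinoid pathway genes tested, 3 were higher (27.3%, against 24.5% of all genes) and 1 lower (9.09%, against 26.9%) in nasal in both genotypes. Among 13 tested eye surface and patterning factors, 5 were higher (38.5%) and 3 lower (23.1%) in both. Irx5, a homeobox factor, differed by 1.07 and 0.69, and Klf5, a Krüppel-like factor of surface epithelium, by 0.59 and 0.74. Tfap2b, an AP-2 factor of eye surface development, read 10.00 on each nasal array, against 10.70 and 10.78 on the temporal arrays, but its other 5 probes did not all keep that sign. Pax6, the master regulator of eye development, differed by -0.28 and -0.50 (SE of the fit 0.38).

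**Figure D2:**
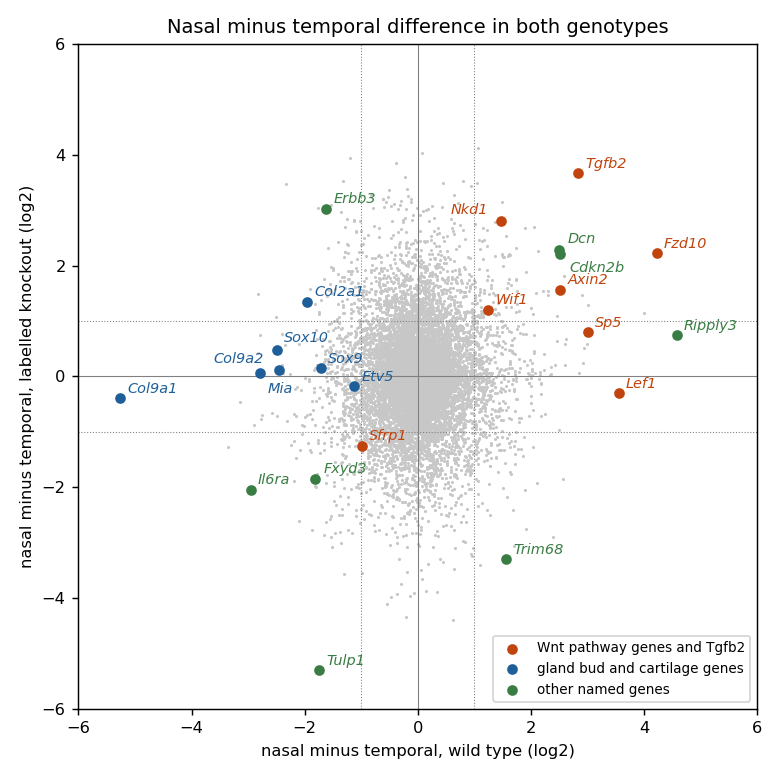
Nasal minus temporal difference (log2) between the wild-type arrays on the horizontal axis and between the knockout arrays on the vertical axis, with a grey point for each of the 11147 genes and dotted lines at 2-fold. Tgfb2, Fzd10, Nkd1, Axin2, Dcn and Cdkn2b lie in the upper right, whereas Sox9, Sox10, Mia, Etv5, Col2a1, Col9a1 and Col9a2 lie to the left, between -0.39 and 1.35 on the knockout axis.

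The gland bud list addressed whether the field of the lacrimal gland, in the temporal epithelium, differed from the nasal field of the Harderian gland. Of its 15 members tested, 4 were higher and 5 lower in nasal in both genotypes (26.7% and 33.3%, against 24.5% and 26.9% of all genes), and none passed 2-fold in both. Between the wild-type arrays alone 5 were at least 2-fold lower in nasal (Sox9, Sox10, Mia, Etv4 and Etv5), where 5.15% of all genes were, and 0 were that much higher (5.12% of all genes). Between the knockout arrays 2 were at least 2-fold lower (Eya1 and Ehf) and 2 higher (Elf5 and Runx1), against 11.2% and 10.8% of all genes. The other Elf5 probes gave -0.83 and -0.66 between the knockout arrays, and another Runx1 probe gave -0.21. The knockout direction of Elf5 and Runx1 is therefore uncertain. The median difference of the list was 0.15 for knockout and -0.41 for wild type.

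Sox9, the gene targeted in the study, is a master regulator of cartilage that also acts in budding glands, and it read 10.21 (knockout) and 8.29 (wild type) on the nasal arrays, against 10.06 and 10.01 on the temporal arrays. Its probe was thus not lower on the arrays labelled knockout in either region, and where it lies relative to the deleted part is not known here. The low array was wild-type nasal, with a difference of 0.15 between the knockout arrays and -1.72 between the wild-type arrays (bead SE 0.06 and 0.07). A dimmer Sox9 probe gave 0.36 and -1.05. The dorsal arrays, at 9.85 and 10.35, were at the temporal level.

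Sox10, the related factor of gland buds and nerve glia, read 4.66 (knockout) and 5.87 (wild type) on the nasal arrays, against an undetected 4.18 and 8.36 on the temporal arrays. Mia, a secreted protein known from cartilage and melanoma cells, read 4.63 and 5.56 on the nasal arrays, against 4.58 and 8.35 on the temporal arrays, and a second probe of Mia gave -3.43 between the wild-type arrays. In both genes a single array, wild-type temporal, stood over all others, the dorsal arrays included (4.31 and 4.53 for Sox10, 5.30 and 4.84 for Mia). Etv5, a transcription factor induced by FGF signalling, read 8.10 and 8.45 on the nasal arrays, against 8.28 and 9.57 on the temporal arrays, with -1.36 for wild type by its other probe. Of the nasal and temporal arrays, only knockout nasal, at 5.27, and wild-type temporal, at 5.78, detected its relative Etv4. The knockout dorsal array detected Etv4 as well, at 4.77.

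In the cartilage matrix list the collagen genes Col2a1, Col9a1, Col9a2 and Col9a3 had their highest level on the wild-type temporal array as well. Col2a1, the main cartilage collagen, read 5.59 (knockout) and 8.09 (wild type) on the nasal arrays, against an undetected 4.24 and 10.04 on the temporal arrays. All 3 Col2a1 probes gave a wild-type difference between -1.83 and -2.07. Col9a1 read an undetected 4.14 and 4.25 on the nasal arrays, against 4.53 and 9.51 on the temporal arrays, at least 32.5-fold lower in nasal between the wild-type arrays, though its only other detected probe reached 5.15 on the wild-type temporal array. Col9a2 (4.34 and 4.50 on the nasal arrays, against 4.23 and 6.96 on the temporal arrays) and Col9a3 (4.63 and 5.25, against 4.17 and 6.56) had the same pattern, Col9a2 being undetected on both knockout arrays. Other cartilage genes did not: Acan read 4.78 and 4.71 on the nasal arrays, against 4.76 and 4.46 on the temporal arrays, and Hapln1 4.51 and 4.40, against 4.69 and 4.17. Of the 10 list members tested, 4 were at least 2-fold lower in nasal between the wild-type arrays (5.15% of all genes), and 0 were between the knockout arrays (11.2% of all genes).

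Among the nasal and temporal arrays, nerve glia markers summed highest on the wild-type temporal array. They include Sox10, already described for its high level there, so the sum adds no separate support. Their summed signal, over 6 tested of 17 on the array, was 399 (knockout) and 189 (wild type) on the nasal arrays, against 90.1 and 802 on the temporal arrays. Besides Sox10 these were Erbb3, Ngfr, Fabp7, Foxd3 and Mbp, while S100b and Cdh19, markers of Schwann cells, did not pass the detection filter or were not matched on the array. Bone and cartilage markers, 5 tested, summed to 80.5 and 282 on the nasal arrays, against 34.9 and 1764 on the temporal arrays, with Runx2, Sp7 and Matn1 likewise not tested. That sum includes Col2a1 and Col9a1, already described for their high wild-type temporal level, and so adds no separate support. The median difference of the 5 markers was 0.02 for knockout and 0.23 for wild type. The part of glia or cartilage in the wild-type temporal values was not tested.

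Hs3st3a1 and Hs3st3b1, which encode heparan sulfate 3-O-sulfotransferases that place a rare sulfate on the chains, were highest on the wild-type temporal array. Hs3st3a1 read 4.57 (knockout) and 4.66 (wild type) on the nasal arrays, against 4.37 and 7.07 on the temporal arrays, and was undetected on both knockout arrays. Hs3st3b1 read 7.23 and 8.34 on the nasal arrays, against 5.17 and 9.53 on the temporal arrays, so that the knockout difference, 2.06, had the opposite sign to the wild-type one, -1.18. Of the 26 heparan sulfate synthesis genes tested, 3 were higher (11.5%, against 24.5% of all genes) and 6 lower (23.1%, against 26.9%) in nasal in both genotypes. Uxs1, which makes the UDP-xylose that starts the chains, was the 1 member at least 2-fold lower in both, by 1.20 and 1.30 log2 units.

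**Figure D3:**
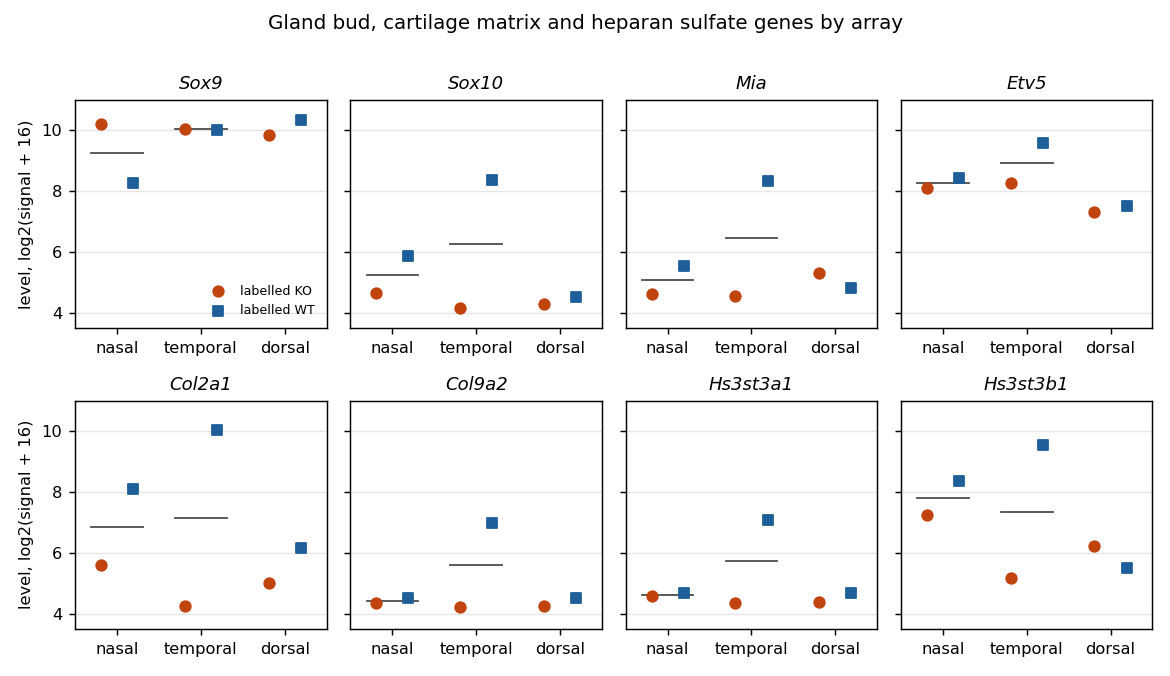
Level of 8 gland bud, cartilage matrix and heparan sulfate genes on each array, as log2(signal + 16), with knockout arrays as circles, wild-type arrays as squares and a bar at the mean of the 2 arrays for nasal and for temporal. The wild-type temporal array is the highest for Sox10, Mia, Etv5, Col2a1, Col9a2, Hs3st3a1 and Hs3st3b1, and for Sox9 the wild-type nasal array is the lowest.

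Whether the nasal minus temporal difference itself depended on genotype was tested with an interaction term, which left 1 residual degree of freedom. It called 0 of 11147 genes at an adjusted p of 0.05 (0%, limma, smallest adjusted p 0.364), with 1092 genes (9.8%) at an unadjusted p under 0.05. The knockout minus wild-type value of the difference was 2.97 (SE 1.32) for Sox10, 2.84 (SE 1.46) for Mia, 3.30 (SE 1.54) for Col2a1 and 1.87 (SE 0.94) for Sox9, with limma adjusted p of 0.537, 0.595, 0.549 and 0.586. The spread in this fit was the dorsal genotype difference set against the mean of the nasal and temporal ones. A genotype effect in temporal alone widens that spread as well. The test therefore could not decide whether the difference depended on genotype for these genes. Erbb3, a neuregulin receptor of glia and epithelia, read 8.35 (knockout) and 6.14 (wild type) on the nasal arrays, against 5.32 and 7.76 on the temporal arrays, an interaction of 4.65 (SE 0.64, limma adjusted p = 0.364). Trim68, a ubiquitin ligase, had the reverse pattern, with 5.61 and 6.82 on the nasal arrays, against 8.91 and 5.26 on the temporal arrays. Trnp1, Acot8, Ccdc166, Sco1 and Slc29a4 were the other genes with the smallest p on the side of Erbb3, and Cyb561a3, Slc6a9, Khnyn, Ddx25 and Nfx1 on the side of Trim68.

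Between the wild-type arrays alone the highest nasal gene was Ripply3, a corepressor of T-box factors in pharyngeal tissue. It read 9.26 (knockout) and 9.69 (wild type) on the nasal arrays, against 8.51 and 5.11 on the temporal arrays, and 8.55 and 6.69 on the dorsal arrays. Alox12, a lipoxygenase of epidermis, read 8.25 and 9.48 on the nasal arrays, against 7.11 and 5.48 on the temporal arrays. Both were higher in nasal in each genotype and larger in wild type. The basal keratin gene Krt14 read 10.26 and 10.24 on the nasal arrays, against 10.02 and 8.22 on the temporal arrays, whereas the keratin gene Krt17 read 7.54 and 7.58 on the nasal arrays, against 8.50 and 5.08 on the temporal arrays, and had opposite signs in the 2 genotypes. Of 35 keratin and adhesion genes tested, 12 were higher in nasal in both genotypes (34.3%, against 24.5% of all genes) and 5 lower (14.3%, against 26.9%). Gm8817 was the sixth of the wild-type genes after Fzd10, Apcdd1 and Bgn.

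At the other end, the axon guidance ligand Sema3b read 4.26 (knockout) and 5.59 (wild type) on the nasal arrays, against 4.72 and 8.74 on the temporal arrays. The integrin Itga9, a receptor for matrix proteins, read 7.03 and 7.60 on the nasal arrays, against 7.17 and 10.18 on the temporal arrays, and its other detected probe differed by 0.03 and -1.62. The matrix protein gene Spon1, Aatk and Shf completed the 6 lowest with Mia. In Sema3b, Itga9 and Spon1 the wild-type temporal array again stood over the other 5.

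The largest knockout differences were not shared by wild type in most cases. Cnksr3, a scaffold of kinase signalling, was 4.13 higher in nasal between the knockout and 1.07 between the wild-type arrays. Aqp1, a water channel, read 8.26 (knockout) and 4.88 (wild type) on the nasal arrays, against 4.76 and an undetected 4.44 on the temporal arrays, and P4ha1, a collagen prolyl hydroxylase, had a similar single high array at 8.04. Sec22b, a vesicle fusion protein, read 5.60 and 7.71 on the nasal arrays, against 9.57 and 7.85 on the temporal arrays. Nfrkb, Tbl2, Ttc19 and Entpd5 had likewise their lowest level on the knockout nasal array, which had the fewest detected probes.

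Of 41 cell cycle genes tested, 17 were lower in nasal in both genotypes (41.5%, against 26.9% of all genes) and 7 higher (17.1%, against 24.5%), with medians of -0.14 for knockout and -0.15 for wild type. Cdk1, the kinase that drives mitosis, differed by -1.72 and -0.82, and Bub1b, of the spindle checkpoint, by -1.34 and -0.78. Their other detected probes did not keep both signs, so the direction of Cdk1 and Bub1b is uncertain. Cdk6 (1.75 and 0.65) and Ccnd1 (0.80 and 0.11), which act in the first gap phase, were among the 7 higher.

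Lipid and cholesterol synthesis genes bear on the Harderian gland, a lipid-secreting organ. Of 27 tested, 3 were higher in nasal in both genotypes (11.1%, against 24.5% of all genes) and 10 lower (37.0%, against 26.9%). At an unadjusted p under 0.05 there was 1 in each direction, where 3.36% of all genes were higher and 3.72% lower. Elovl1, an elongase of fatty acids, was the higher one, by 2.30 and 0.67, and Insig1, a regulator of cholesterol synthesis, differed by -0.38 and -1.21. Secretory gland products were mostly undetected at this stage: 10 of 22 on the array were tested, and the lacrimal products Ltf, Lpo and Aqp5 were not among them.

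**Figure D4:**
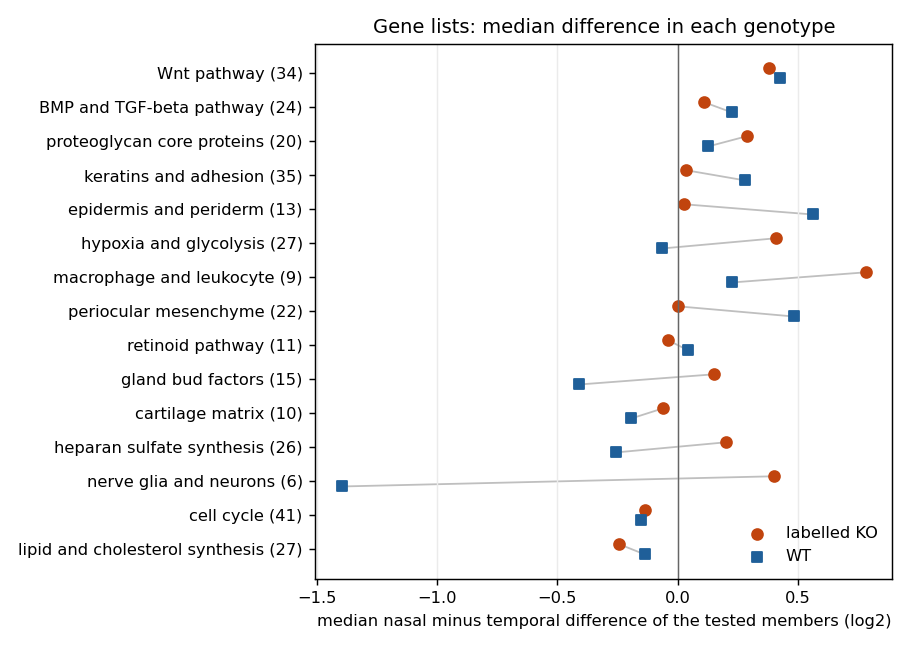
Median nasal minus temporal difference (log2) of the tested members of 15 gene lists, with the number tested in brackets, for the knockout arrays (circles) and the wild-type arrays (squares). The Wnt list is well over 0 in both genotypes, while nerve glia, gland bud and heparan sulfate genes lie on opposite sides of 0 in the 2 genotypes.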

How the data were processed

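Per the file headers, the deposited table of signals gave for each probe and array an average signal intensity, its standard error over beads, a bead count and a detection p-value set against the negative controls of the array. GenomeStudio is named, without a version, in the submitters' processing notes. The deposited intensities were used before any normalization. A second deposited table held the authors' processed intensity values, with their method of normalization not given in the sources used here. Their ranks within each array were those of the signals (rank correlation 1), so they served as an alternative.

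Signals were background-corrected with limma 3.58.1 in R 4.3.3 (nec, offset 16, controls inferred from the detection p-value), quantile-normalized and taken to log2. The brightest probe detected at 0.05 on at least 2 arrays stood for its gene. Region and genotype were fitted to all 6 arrays with lmFit and eBayes (2 residual degrees of freedom), with Benjamini-Hochberg adjustment over 11147 genes. The interaction of region and genotype had its own fit. Probe names came from the platform annotation, updated through the NCBI table of GRCm38.p6, and promoter sequences from RefSeq. Where a side was undetected, its fold is a bound, taken from the probe's own level there or from the array's lowest detected level, whichever was higher. The code was tested on simulated data. The 4 to 6 arrays limit the precision of every value.

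Genes were named by rule: the 12 highest and 12 lowest by the smaller of the 2 genotype differences, list members past 2-fold in both genotypes, the 6 extremes of each genotype, and the 6 in each direction with the smallest interaction p. Other list members are examples chosen after their values were seen. The genes, gene lists and rules were chosen with earlier results of these data known. Alternatives changed the background correction, offset, scaling, detection filter, probe choice, source of values, covariates and arrays.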

Additional observations from a re-analysis of the deposited data

Results flagged for a closer look

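The table of signals held 1315 entries without a probe identifier, which enter no comparison above. On the knockout temporal array 1210 of them had a signal, and 739 of these (61.1%) had a detection p-value under 0.05, while 0 had a signal on a wild-type array. On the knockout nasal array 0 had a signal, although 1210 had a detection p-value, 708 of them under 0.05. They were flagged because signal appeared outside the named probes on an array of the comparison. The labels and headers do not say what these entries measured.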

How the results depend on the processing

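The number of genes past the threshold for nasal minus temporal was 0 under each alternative run, and leaving out an array gave 0 to 0. At an unadjusted p under 0.05 the count was 789 with all arrays, 526 with the 4 nasal and temporal arrays and 758 without genotype in the fit. It was 1529 without the wild-type nasal array and 433 without the knockout temporal array, and 661 and 1157 without the knockout nasal and wild-type temporal arrays. Without either dorsal array it was 526. The interaction test had no residual degrees of freedom without an array or in the 4-array fit and was not run there. Counts within a genotype, with 1 array a region, cannot be made without an array.

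Counts past 2-fold depended on how dim signals were treated. Without background correction, with an offset of 50 and with detection required on all 4 nasal and temporal arrays, which leaves fewer genes, the knockout count (2452) was 727, 1096 and 1583. The wild-type count (1145) was 186, 327 and 703 in that order. Genes past 2-fold in 1 direction in both genotypes (209) numbered 18, 41 and 115, and 135 with the mean of a gene's probes. Genes past 2-fold in opposite directions (181) numbered 10, 27 and 113, and 109 with the mean of probes. The Wnt members past 2-fold in both genotypes (5) numbered 1 without background correction and 1 with an offset of 50. The cause was not tested beyond what these settings do by construction. Of the named genes, Mfsd11 reversed to 0.50 where all 4 arrays had to detect it, since another probe then stood for it. The other genes named by their rank in both genotypes, or as list members past 2-fold in both, kept their sign in the fit under each alternative that gave a value. They were chosen for a large difference of the same sign in both genotypes, so a kept sign largely follows from that choice. The differences within 1 genotype of the genes named from that genotype, and of Sox9, Sox10, Col2a1, Col9a1 and Hs3st3a1, reversed under 0 of the alternatives run. Their size was less stable. Counting each gene under each alternative, 32 knockout values moved by more than 0.50 log2 units and 51 did not. Of the wild-type values 33 moved by that much and 81 did not. Genes named by the interaction alone and the other list examples, such as Sfrp1 and Aldh1a3, were not recomputed one by one.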

Other observations

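No gene of the further groups described here passed the test across all genes. Of all genes tested, 24.5% were higher and 26.9% lower in nasal in both genotypes, and the shares below are to be read against these. Of 9 macrophage and leukocyte markers tested, 6 were higher in nasal in both genotypes (66.7%) and 1 lower (11.1%), and their summed linear signal was 314 (knockout) and 140 (wild type) on the nasal arrays, against 140 and 49.9 on the temporal arrays. Tyrobp, a signalling adaptor of myeloid cells, read 5.69 (knockout) and 5.02 (wild type) on the nasal arrays and was undetected on both temporal arrays, at least 1.81-fold higher in nasal. Hbb-y, an embryonic globin of red cells, read 7.07 and 6.84 on the nasal arrays, against an undetected 4.29 and 5.47 on the temporal arrays. Of 6 erythroid markers tested, 2 were higher in nasal in both genotypes (33.3%) and 1 lower (16.7%). Alas2, another of these markers, ran against Hbb-y. It was undetected on both nasal arrays, at least 2.91-fold (knockout) and 1.35-fold (wild type) lower in nasal. The summed erythroid signal was 386 and 478 on the nasal arrays, against 331 and 403 on the temporal arrays.

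Of 13 epidermis and periderm genes tested, 6 were higher in nasal in both genotypes (46.2%) and 1 lower (7.69%). The gap junction genes Gjb2 and Gjb6 differed by 0.53 and 0.56 between the knockout and 1.48 and 1.06 between the wild-type arrays. Hypoxia and glycolysis genes had 10 higher (37.0%) and 4 lower (14.8%) of 27 tested, with medians of 0.41 for knockout and -0.07 for wild type, and Vegfa, the growth factor of blood vessels, differed by 1.45 and 0.82. Col4a1, a collagen of basement membranes, was lower in nasal by 0.87 and 0.89 log2 units. In the Notch pathway 6 of 16 tested genes were higher in nasal in both genotypes (37.5%) and 3 lower (18.8%), and Dlk1, a non-canonical ligand, differed by -1.74 and -0.86.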
